A study of Mus musculus with 6 samples.

Results

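The genes described here carry out or control programmed cell death, or belong to the tumor necrosis factor (TNF) ligand and receptor families. They were taken by gene symbol (names such as Bcl2, Casp, Tnfrsf, Tnfsf, Ripk, Gadd45 and Pdcd, with single genes such as Mcl1, Bax and Ngfr). A total of 50 of the 7320 genes in the deposited table carried such a name. Of these, 49 were annotated as protein coding, and Tnfsf13os was an antisense transcript.

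Cells die by apoptosis along an intrinsic and an extrinsic route. In the intrinsic route, BH3-only proteins release the pore formers BAX and BAK from restraint by anti-apoptotic proteins such as MCL1 and BCL-xL. Mitochondria then leak cytochrome c, APAF1 assembles the apoptosome, and caspase-9 activates the executioner caspases. In the extrinsic route, death receptors of the TNF receptor family recruit FADD and caspase-8, while other receptors of the family signal through TRAF adaptors and RIP kinases to NF-kB, or through RIPK3 and MLKL to necroptosis. In ovarian cancer this machinery sets how readily cells die in suspension and under platinum drugs, and p53 feeds into it through target genes such as Bax, Pmaip1 and Perp.

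RNA was measured in 2 mouse lines of C57Bl6 origin, ID8 and KMF, both grown untreated for 5 days as suspended tumorspheres in PromoCell XF medium. ID8 cells are transformed mouse ovarian epithelial cells with wild-type p53. KMF cells (ID8-IP in the labels) are a single in vivo selected derivative, recovered from the ascites of mice bearing ID8 tumors. Each line had 3 poly-A RNA libraries, at passages 23, 24 and 35 for ID8 replicates 1 to 3 and passages 14, 17 and 22 for KMF replicates 1 to 3. The passages did not overlap, so line and passage number cannot be told apart, and the p-values measure the spread between passages of a single culture history per line. The comparison asks how the expression of cell death genes differed between the parental and the evolved line.

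The libraries held between 23108407 and 33212313 fragments on genes, and 3 counts, used as the detection floor, equalled 0.0903 to 0.13 CPM (counts scaled to the library total). Of 12 ovarian surface epithelial markers, 8 were in the table: Msln was higher in KMF (34.3 ± 4.7 FPKM in ID8 and 91.6 ± 11.5 in KMF), and Cdh1 (8.61 ± 2.94 FPKM in ID8 and 0.726 ± 0.222 in KMF), Upk3b (25.3 ± 16.4 FPKM in ID8 and 1.7 ± 0.554 in KMF), Epcam, Krt7 and Wt1 (108 ± 12.1 FPKM in ID8 and 77.3 ± 13.2 in KMF) were lower, with log2 fold changes of -3.55 for Cdh1, -3.88 for Upk3b, -2.43 for Epcam, -2.55 for Krt7 and -0.45 for Wt1. Upk1b was not called (9.5 ± 4.4 FPKM in ID8 and 14.7 ± 1.96 in KMF) and Muc16 was too low to be fitted (0.79 ± 0.438 FPKM in ID8 and 0.135 ± 0.173 in KMF). The summed level of the 8 was 149 to 226 FPKM in ID8 and 161 to 213 FPKM in KMF. Fibroblast markers also moved with the line, since 4 of 10 were in the table and all 4 were lower in KMF, their summed level being 77.3 to 107 FPKM in ID8 and 13.5 to 25.9 FPKM in KMF. Of 16 leukocyte markers, Cd74 alone was in the table, at 0.857 to 1.59 FPKM in ID8 and 0.215 to 0.391 FPKM in KMF, and of 8 endothelial markers Kdr and Tie1 were in the table, with a sum of at most 0.174 FPKM in any library. The other markers were not analysed here, and the part of these cell type markers in the results below was not tested. Levels are FPKM (fragments scaled to gene length and library size), with means ± SD over 3 libraries. Differences are log2 fold changes of KMF over ID8 from edgeR, given ± SE. The SE was derived, as the size of the log2 fold change divided by the square root of edgeR's F statistic. In such bulk RNA, fewer cells of a type and less RNA per cell cannot be told apart.

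Of the 50 genes, 46 passed the filter on low counts and 44 were called different at an adjusted p under 0.05, 26 higher and 18 lower in KMF. The table lists only genes that its authors had already called on these same libraries, so the calls are a description, and 92.9% of all 6967 fitted genes were called as well. Among all fitted genes 45.4% were called higher and 47.5% lower, against 56.5% and 39.1% of the cell death genes. Changes of at least 2-fold were found in 20 of the 46 fitted genes (43.5%), close to the 40.5% among all fitted genes. They were mostly increases: 15 genes rose at least 2-fold (32.6%, against 18.0% of all fitted genes) and 5 fell at least 2-fold (10.9%, against 22.5%). This split depends on the filter on low counts. Among the increases, Ngfr, Tnfrsf14 and Trp53i11 had few counts in ID8, and among the decreases Tnfrsf9 had few in KMF. The 4 genes not fitted are left out of it: Ripk4, Bcl2l14 and Gsdma were lower in KMF and Tnfrsf11a was higher. The median log2 fold change was 0.42 for the cell death genes and -0.23 for all fitted genes. This gap narrowed where low genes were dropped, to 0.33 against 0.20 with a minimum of 10 counts per library and to 0.315 against 0.20 with limma. At the other end, 15 called genes differed by less than 1.5-fold, 6 of them higher and 9 lower. All 46 fitted genes had CPM values that did not overlap between the lines, as did 96.6% of all fitted genes. None of the 46 changed direction under any of the 15 alternative analyses, but without ID8 replicate 1 the number called was 29 of 47 fitted (19 higher, 10 lower), while the number called among all genes went from 6470 to 5189.

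**Figure D1:**
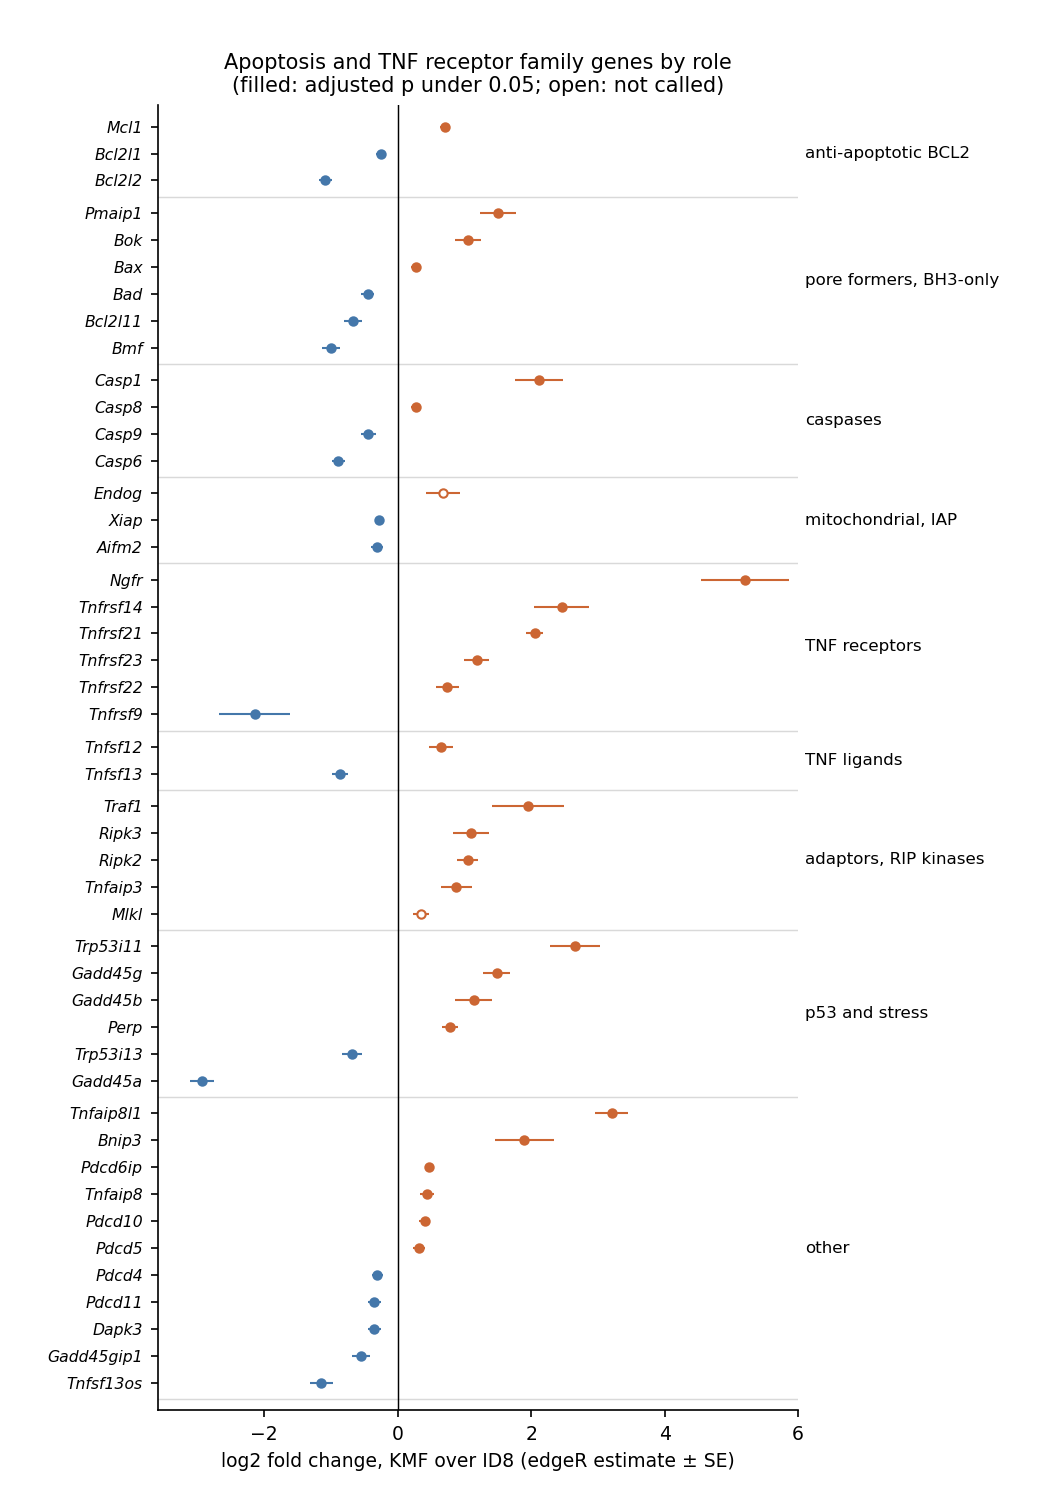
Log2 fold change of KMF over ID8 (edgeR estimate, bars ± SE, 3 libraries per line) for the 46 fitted genes, grouped by role. Points to the right of 0 are higher in KMF, and open points (Endog and Mlkl) were not called; receptors and adaptors lie mostly to the right, from Ngfr at 5.21, while Gadd45a at -2.93 lies farthest to the left.

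**Figure D2:**
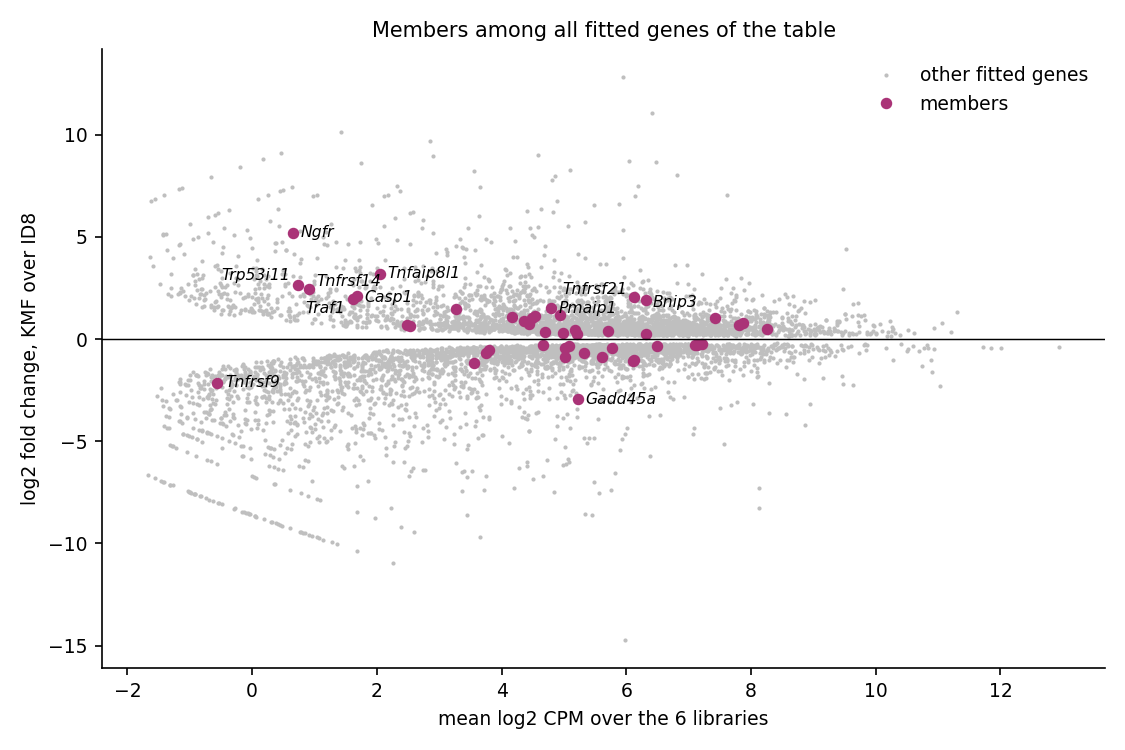
Log2 fold change of KMF over ID8 against mean log2 CPM over the 6 libraries for all 6967 fitted genes (grey) and the 46 fitted cell death genes (purple), with names at log2 changes of at least 1.5 in size. The empty band along 0 follows from the table, which lists only called genes.

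Most of the cell death genes were expressed in both lines: 39 of the 50 had a mean above 1 FPKM in each, 4 (Tnfrsf14, Casp1, Tnfaip8l1 and Traf1) had one only in KMF, none had one only in ID8, and 7 stayed at or under 1 FPKM in both. In ID8 the highest means were those of Perp, Bax, Bok, Bcl2l1 and Pdcd4. In KMF they were those of Bok, Perp, Bax, Mcl1 and Bnip3. Pdcd4, a translation inhibitor, read 63.6, 62.9 and 63.9 FPKM in the ID8 libraries and 46.3, 55.6 and 47.8 in the KMF libraries, and it fell (log2 fold change -0.31 ± 0.09, adjusted p = 0.024). That call was lost without ID8 replicate 1 or 2 or KMF replicate 1 or 3 (adjusted p up to 0.0995).

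Promoters were read for the genes that moved together. RefSeq start sites were matched for 40 of the 50 genes, 20 of them called higher and 16 called lower, and the 250 bases before the start site were searched on both strands. Where RefSeq gives several windows (1 of the 20 genes and 8 of the 16), the start site nearest to the GENCODE gene start was used. The letters CACGTG, the E-box read by MYC-MAX and related factors, were present before 8 of the 20 genes called higher (Bax, Bnip3, Casp1, Gadd45b, Gadd45g, Pdcd6ip, Ripk3 and Tnfaip3) and before 0 of the 16 called lower, in any of their 28 windows. Of all 32851 RefSeq windows of this length 6.02% hold them, and of the 2354 and 2419 windows of all genes called higher and lower 8.96% and 8.35%. The shorter ACGTG, which every CACGTG contains, was present before 10 of the 20 and 2 of the 16, or 4 of the 16 when all their windows were read, and in 16.6% of all windows (22.9% and 19.6% of those of all genes called higher and lower). An NF-kB consensus was present before 3 of the 20 and 0 of the 16, or 2 of the 16 (Bcl2l1 and Tnfrsf9) when all their windows were read (7.25% of all windows, and 9.73% and 8.39% of those of all genes called higher and lower), a p53 half-site consensus before Bax and Gadd45a, with Bmf added when all windows were read (7.13%, with 5.9% and 6.12%), and the forkhead core GTAAACA before Bcl2l11 alone (3.17%, with 2.25% and 1.9%). These are matches of letters only.

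Shown first, because they belong to a stress sensor and a caspase that rose at least 2-fold, are the whole 250-base windows of Gadd45g and Casp1 (RefSeq, GRCm38.p6, 5′ to 3′), with CACGTG in capitals 142 and 137 bases before the start sites.
Gadd45g, chr13:51846425-51846674, plus strand: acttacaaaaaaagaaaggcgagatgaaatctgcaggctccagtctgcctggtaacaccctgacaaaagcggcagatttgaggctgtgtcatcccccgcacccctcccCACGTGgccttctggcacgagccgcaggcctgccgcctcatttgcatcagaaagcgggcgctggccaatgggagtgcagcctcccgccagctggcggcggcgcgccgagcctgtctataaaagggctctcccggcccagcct
Casp1, chr9:5298267-5298516, plus strand: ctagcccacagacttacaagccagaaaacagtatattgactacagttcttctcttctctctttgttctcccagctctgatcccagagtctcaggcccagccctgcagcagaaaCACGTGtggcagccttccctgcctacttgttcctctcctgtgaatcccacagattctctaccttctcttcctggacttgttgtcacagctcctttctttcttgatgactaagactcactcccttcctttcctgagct
The same letters in the other 6 windows, in stretches of at most 30 bases, were as follows.
Bax, chr7:45466899-45466919, minus strand: agcgatgatgatCACGTGact
Bnip3, chr7:138909597-138909626, minus strand: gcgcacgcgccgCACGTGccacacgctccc
Gadd45b, chr10:80929894-80929923, plus strand: agccctgaccccCACGTGgggccgccggag
Pdcd6ip, chr9:113708280-113708309, minus strand: tggtggcaccatCACGTGaccgagcggcgc
Ripk3, chr14:55788901-55788930, minus strand: gcagtttcaaggCACGTGcacaggaaatag
Tnfaip3, chr10:19015426-19015455, minus strand: cgccacgcgggtCACGTGactggaatttcc

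The NF-kB consensus matches are shown because Tnfaip3, Tnfaip8l1 and Trp53i11 all rose, with the match in capitals. Tnfaip3 held 2 of them, 125 and 12 bases before its start site, and Trp53i11 held 2 that overlap, of which the first is shown.
Tnfaip3, chr10:19015516-19015545, minus strand: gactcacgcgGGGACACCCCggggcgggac
Tnfaip3, chr10:19015411-19015432, minus strand: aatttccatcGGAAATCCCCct
Tnfaip8l1, chr17:56162333-56162362, plus strand: ctattccggaGGAATCTCCCggccgcagac
Trp53i11, chr2:93187384-93187413, plus strand: gtccccgtccGGGGATCCCCctagccaagc
The p53 half-site match of Bax and the GTAAACA of Bcl2l11, genes that differed in opposite directions, read as follows.
Bax, chr7:45467080-45467109, minus strand: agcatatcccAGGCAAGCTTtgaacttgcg
Bcl2l11, chr2:128125800-128125829, plus strand: aagacactaggGTAAACAcgccggggtggg

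Among the anti-apoptotic BCL2 proteins, KMF cells carried more Mcl1 and less Bcl2l1 and Bcl2l2. The table held these 3 of the 9 genes listed, each of them called. Mcl1 (chr3:95658721-95663176), a short-lived inhibitor that holds BAK and the BH3-only proteins, read 46.7, 50.7 and 50.4 FPKM in the ID8 libraries and 77.2, 79.7 and 77.5 in the KMF libraries. It rose 1.63-fold, with tight replicates in both lines (log2 fold change 0.70 ± 0.07, adjusted p = 1.83e-04). Bcl2l2 (chr14:54883377-54888234), which encodes BCL-w, read 24.3, 21.5 and 25.5 FPKM in the ID8 libraries and 9.82, 11.6 and 11.3 in the KMF libraries. It fell, every KMF library lying below every ID8 library (log2 fold change -1.08 ± 0.09, adjusted p = 9.54e-05). A readthrough gene on the same strand, Gm20521, shares 13.3% of the Bcl2l2 exon bases, so some of its reads could belong to either. Bcl2l1 (chr2:152780668-152831728), which encodes BCL-xL, read 67.1, 63.1 and 61.3 FPKM in the ID8 libraries and 55, 50.9 and 51.3 in the KMF libraries. The difference was small (log2 fold change -0.25 ± 0.07, adjusted p = 0.0309) and was no longer called without ID8 replicate 1 or 2 or KMF replicate 2 or 3, with adjusted p up to 0.138.

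The 3 genes together gave 137 ± 1.35 FPKM in ID8 and 141 ± 1.16 FPKM in KMF, so the sum differed little while its makeup differed. Mcl1 made up 36 ± 1.93% of it in ID8 and 55.3 ± 0.851% in KMF. Bcl2l1 went from 46.6 ± 1.97% to 37 ± 1.51% and Bcl2l2 from 17.4 ± 1.34% to 7.71 ± 0.687%. In every KMF library Mcl1 was the most abundant of the 3, and in every ID8 library Bcl2l1 was.

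**Figure D3:**
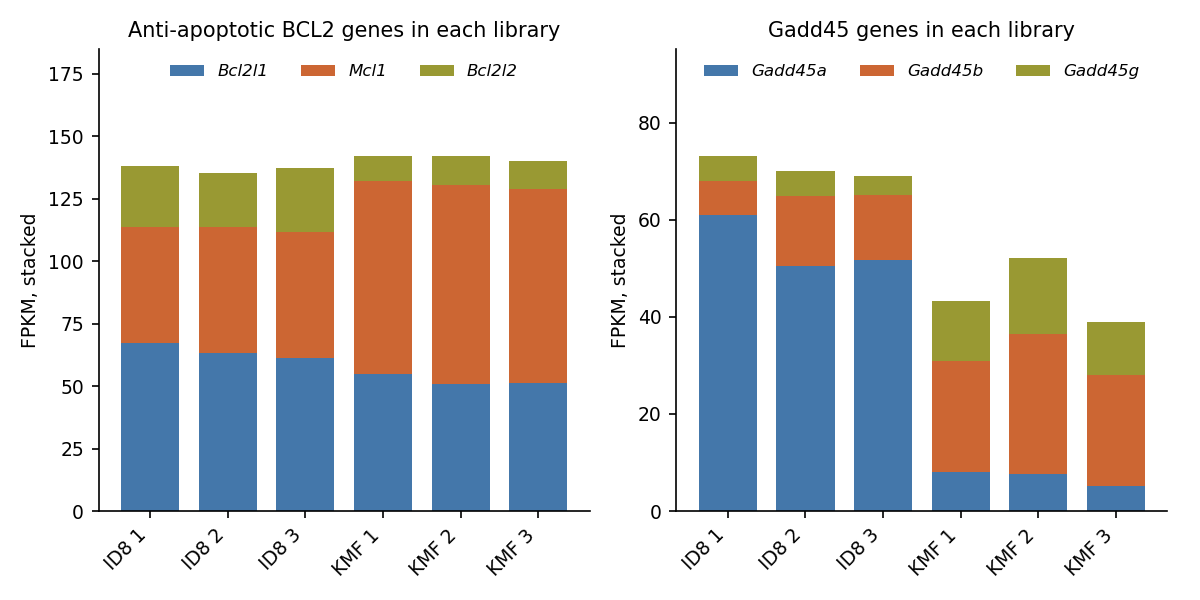
FPKM of the 3 listed anti-apoptotic BCL2 genes (left) and of the 3 Gadd45 genes (right), stacked for each of the 6 libraries. The height of the BCL2 stacks lies between 135.4 and 142 FPKM throughout while the Mcl1 layer widens in KMF, and the Gadd45a layer, the bulk of the Gadd45 stack in ID8, is thin in KMF.

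The pore formers and BH3-only proteins split evenly, with 6 of 11 in the table, 3 higher and 3 lower in KMF. Bok and Bax, the pore formers in the table, were higher. Bok (chr1:93685660-93695764), a BAX-like protein, read 67.6, 74.4 and 90.8 FPKM in the ID8 libraries and 200.3, 146 and 122 in the KMF libraries. All KMF values lay above all ID8 values, although KMF replicates spread more widely (log2 fold change 1.05 ± 0.19, adjusted p = 0.00359). Bax (chr7:45461695-45466898), the effector that permeabilizes mitochondria, read 80.8, 87.7 and 84.6 FPKM in the ID8 libraries and 101, 99.4 and 96.5 in the KMF libraries. Its increase was 1.2-fold (log2 fold change 0.27 ± 0.07, adjusted p = 0.0199) and was not called under 5 of the 15 alternatives, among them upper quartile scaling, the replicate block and the fit without ID8 replicate 1 (adjusted p up to 0.16). Gm45808 on the same strand shares 12.2% of the Bax exon bases, so some Bax reads could belong to either gene. Bax and Bok summed to 162 ± 13.5 FPKM in ID8 and 255 ± 42.1 FPKM in KMF.

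Of the BH3-only proteins, Pmaip1 was higher and Bmf, Bcl2l11 and Bad were lower. Pmaip1 (chr18:66458604-66465550), a p53 target that encodes NOXA and binds MCL1, read 6.22, 6.64 and 3.65 FPKM in the ID8 libraries and 18.3, 10.8 and 16.6 in the KMF libraries. It rose 2.83-fold (log2 fold change 1.5 ± 0.27, adjusted p = 0.00335), the lowest KMF value still lying above the highest ID8 value. Bmf (chr2:118528757-118549687), which encodes a sensor tied to the actin cytoskeleton and to loss of attachment, read 19, 18.7 and 23 FPKM in the ID8 libraries and 11.3, 9.95 and 8.22 in the KMF libraries. It fell 2.0-fold (log2 fold change -1.0 ± 0.14, adjusted p = 8.86e-04). Bcl2l11 (chr2:128126038-128162547), which encodes BIM, an activator that binds every anti-apoptotic BCL2 protein, read 9.74, 8.46 and 11.3 FPKM in the ID8 libraries and 5.36, 5.77 and 6.89 in the KMF libraries, and it also fell (log2 fold change -0.67 ± 0.13, adjusted p = 0.00465). Bad, a sensor controlled by survival kinases, fell from 44.1 ± 1.53 to 31.4 ± 3.39 FPKM (log2 fold change -0.45 ± 0.10, adjusted p = 0.00891), with 20.5% of its exon bases shared with Gpr137 on the other strand. The 4 BH3-only genes summed to 79.7 ± 3.24 FPKM in ID8 and 62.4 ± 4.7 FPKM in KMF, and the share of Pmaip1 in that sum was 6.97 ± 2.25% and 24.3 ± 5.58%.

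**Figure D4:**
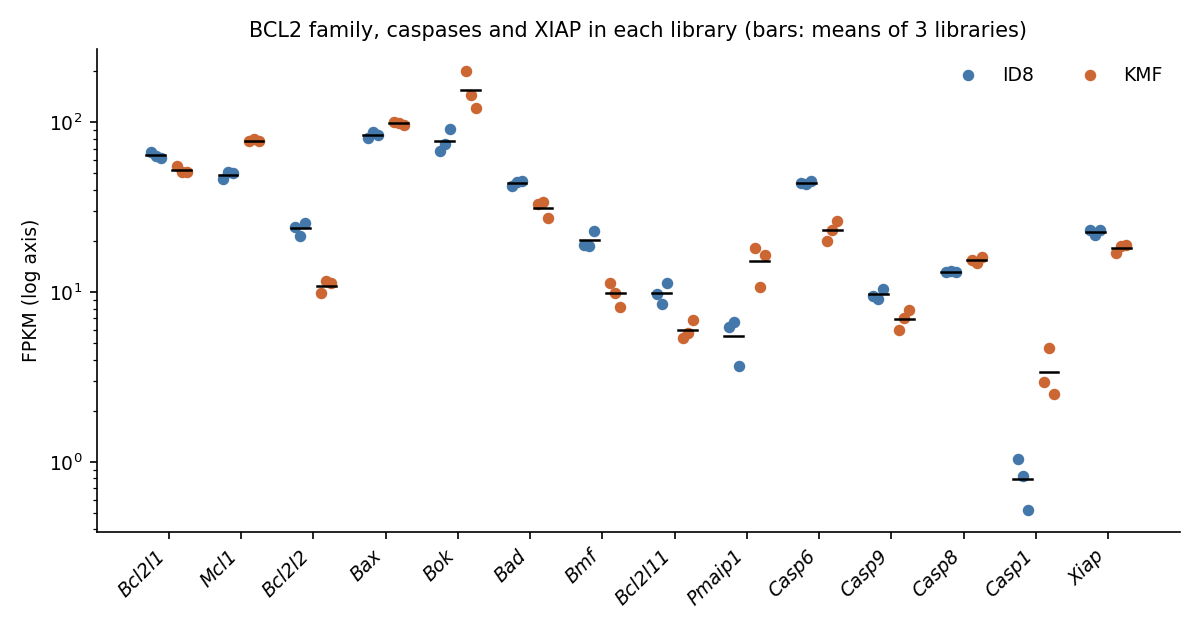
FPKM (log axis) of BCL2 family genes, caspases and Xiap in each library, ID8 in blue and KMF in orange, with bars at the mean of 3 libraries. Mcl1, Bok, Pmaip1 and Casp1 sit higher in KMF, and Bcl2l2, Bmf, Bcl2l11 and Casp6 sit lower, with no overlap between the lines.

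Among the caspases, 4 of 10 were in the table and were called, Casp1 and Casp8 higher and Casp6 and Casp9 lower. Casp1 (chr9:5298517-5307265), the inflammatory caspase that matures interleukin-1beta, read 1.04, 0.83 and 0.521 FPKM in the ID8 libraries and 2.95, 4.71 and 2.51 in the KMF libraries. It rose 4.33-fold from a low level (log2 fold change 2.11 ± 0.36, adjusted p = 0.00252), with KMF replicate 2 the highest. Casp6 (chr3:129901425-129914103), an executioner caspase that cleaves lamin A, read 43.7, 43.2 and 45.4 FPKM in the ID8 libraries and 20.1, 23.2 and 26.1 in the KMF libraries, a fall of 1.85-fold (log2 fold change -0.89 ± 0.10, adjusted p = 3.38e-04).

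The initiators of both routes moved less. Casp9 (chr4:141793612-141815976), the apoptosome caspase, read 9.55, 9.12 and 10.4 FPKM in the ID8 libraries and 5.97, 7.07 and 7.83 in the KMF libraries (log2 fold change -0.44 ± 0.11, adjusted p = 0.0181). Its call was lost without ID8 replicate 1 or 3 or KMF replicate 1 or 2 (adjusted p up to 0.0627). Casp8 (chr1:58795374-58847503), the death receptor caspase, read 13.1, 13.2 and 13.1 FPKM in the ID8 libraries and 15.5, 14.8 and 16.2 in the KMF libraries (log2 fold change 0.27 ± 0.08, adjusted p = 0.0259). That call was lost under 11 of the 15 alternatives, with adjusted p up to 0.195, and the fold estimate was 1.21.

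The list of the apoptosome, released mitochondrial proteins and inhibitors of apoptosis also holds the Aifm genes. Of its genes 3 of 10 were in the table and 2, Xiap and Aifm2, were called, both lower. Xiap (chrX:42059679-42109656), the direct inhibitor of caspases, read 23.2, 21.6 and 23.3 FPKM in the ID8 libraries and 17.1, 18.8 and 18.9 in the KMF libraries, which is a small fall (log2 fold change -0.28 ± 0.07, adjusted p = 0.0157). It was not called without ID8 replicate 1 or KMF replicate 1 (adjusted p up to 0.0617). Aifm2 (chr10:61715263-61739260), an oxidoreductase that restrains ferroptosis, read 9.18, 9.17 and 9.15 FPKM in the ID8 libraries and 7.04, 6.98 and 7.57 in the KMF libraries (log2 fold change -0.31 ± 0.09, adjusted p = 0.0294). Its call was lost in each of the 6 fits that leave out a library and with the replicate block, with adjusted p up to 0.123. Endog, a mitochondrial endonuclease, was not called and averaged 4.06 ± 0.365 FPKM in ID8 and 6.31 ± 1.96 in KMF (log2 fold change 0.68 ± 0.25, adjusted p = 0.0746), and 35.7% of its exon bases overlap Spout1 on the other strand.

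Of 22 TNF superfamily receptors on the list 7 were in the table. Of the 6 that were fitted, 5 were called higher in KMF and Tnfrsf9 was called lower, while 45.4% of all fitted genes were called higher. Tnfrsf11a was too low to be fitted. Fewer receptors were called higher with a minimum of 10 counts per library, which drops low genes. Tnfrsf21 (chr17:43016555-43089188), which encodes death receptor DR6, read 7.41, 8.8 and 6.54 FPKM in the ID8 libraries and 30.2, 28.5 and 33.3 in the KMF libraries. The lowest KMF library stood far above the highest ID8 library (log2 fold change 2.05 ± 0.13, adjusted p = 2.87e-05). Tnfrsf21 was the most abundant of the 7 receptors in the table, with 41.8 ± 5.34% of their sum in ID8 and 57.3 ± 4.51% in KMF. That sum was 18.2 ± 1.96 FPKM in ID8 and 53.5 ± 0.784 FPKM in KMF.

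Ngfr (chr11:95568818-95587735), which encodes the neurotrophin receptor p75NTR, gave 1, 4 and 1 counts in the ID8 libraries and 109, 39 and 81 in the KMF libraries. It was near the detection floor in ID8 and at 1.34, 0.49 and 0.708 FPKM in KMF, with a log2 fold change that rests on a total of few ID8 counts (log2 fold change 5.21 ± 0.66, adjusted p = 6.16e-04). The ID8 libraries differed by up to 4.89-fold in CPM for Ngfr, replicate 2 being the highest, so the fold estimate depends on that library. Tnfrsf14 (chr4:154922210-154928563), which encodes the LIGHT and BTLA partner HVEM, gave 15, 6 and 24 counts in the ID8 libraries and 71, 77 and 92 in the KMF libraries. It rose 5.49-fold (log2 fold change 2.46 ± 0.42, adjusted p = 0.00248), and its ID8 libraries differed by up to 3.76-fold in CPM.

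Tnfrsf23 and Tnfrsf22 encode decoy receptors of mouse TRAIL that lack a working death domain, and they lie 16147 bases apart on chromosome 7 (chr7:143665809-143685872 and chr7:143634806-143649661). Tnfrsf23 read 4.5, 6.87 and 5.58 FPKM in the ID8 libraries and 11.7, 14.6 and 11 in the KMF libraries (log2 fold change 1.18 ± 0.18, adjusted p = 0.0016). Tnfrsf22 read 3.2, 3.49 and 5.06 FPKM in the ID8 libraries and 6.14, 6.91 and 6.08 in the KMF libraries (log2 fold change 0.75 ± 0.18, adjusted p = 0.0119). Both rose without overlap between the lines. Their longest transcripts align over 2172 bases at 91.2% identity, so the split of reads between them is uncertain.

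Tnfrsf9 (chr4:150914562-150946102), which encodes the costimulatory receptor 4-1BB, went the other way, with 34, 33 and 12 counts in the ID8 libraries and 7, 5 and 5 in the KMF libraries. The fall (log2 fold change -2.15 ± 0.54, adjusted p = 0.0149) was not called without ID8 replicate 1 or 2 or KMF replicate 2 or 3 (adjusted p up to 0.0679). Tnfrsf11a (chr1:105780718-105847981), which encodes RANK, gave 1, 1 and 0 counts in the ID8 libraries and 10, 11 and 7 in the KMF libraries. All ID8 libraries were at or under 3 counts, so it was at least 3.24-fold higher in KMF, measured as the mean CPM against the floor per library.

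**Figure D5:**
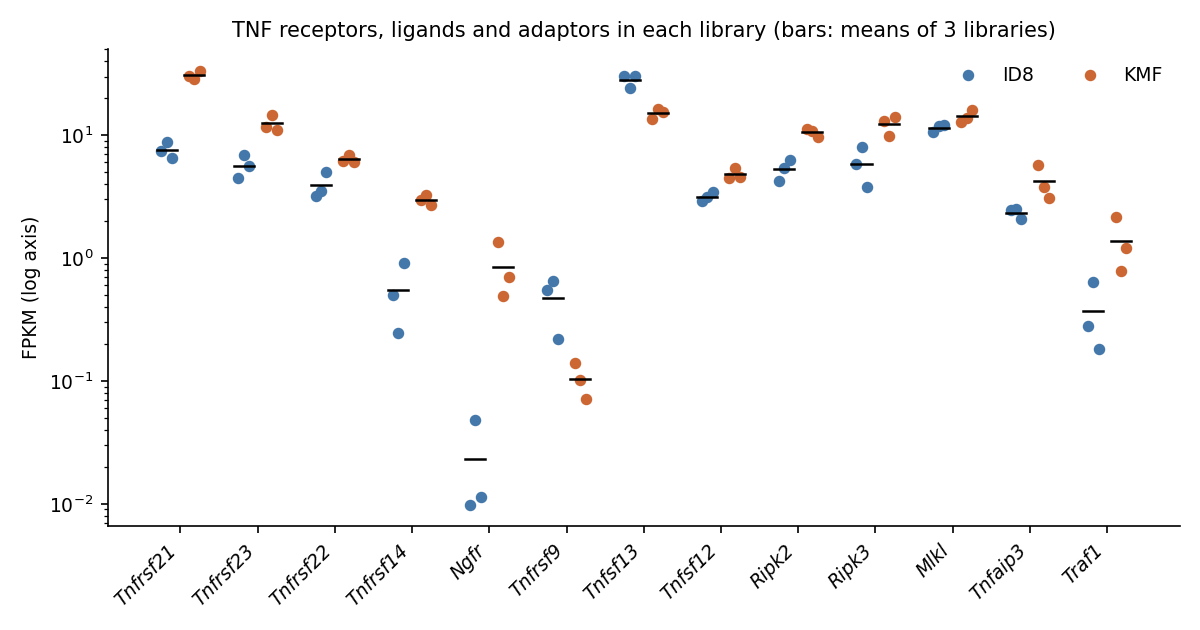
FPKM (log axis) of TNF receptors, ligands, adaptors and RIP kinases in each library, ID8 in blue and KMF in orange, with bars at the mean of 3 libraries. Tnfrsf21, Tnfrsf14 and Ngfr stand well apart between the lines, Tnfrsf9 and Tnfsf13 are lower in KMF, and Tnfrsf11a and Ripk4 are not drawn because some libraries are at 0.

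The TNF superfamily ligands Tnfsf13 and Tnfsf12, 2 of the 13 on the list, lie 465 bases apart on chromosome 11 and moved in opposite directions. Tnfsf13 (chr11:69682846-69685784), which encodes APRIL, read 30.2, 24.4 and 30.2 FPKM in the ID8 libraries and 13.6, 16.2 and 15.4 in the KMF libraries, with no overlap (log2 fold change -0.86 ± 0.12, adjusted p = 8.00e-04). Tnfsf12 (chr11:69686250-69695849), which encodes TWEAK, read 2.91, 3.12 and 3.45 FPKM in the ID8 libraries and 4.49, 5.43 and 4.55 in the KMF libraries (log2 fold change 0.65 ± 0.17, adjusted p = 0.0201). The rise of Tnfsf12 was not called with the replicate block or without ID8 replicate 1 or 2 or KMF replicate 2 (adjusted p up to 0.0847). Tnfsf13os (chr11:69682138-69691141), the antisense transcript across both ligand genes, read 22, 16 and 22.2 FPKM in the ID8 libraries and 7.53, 9.44 and 9.41 in the KMF libraries and fell with Tnfsf13 (log2 fold change -1.15 ± 0.17, adjusted p = 0.00135). The kit does not mark strand, so reads from Tnfsf13 and Tnfsf13os, which share 221 exon bases, cannot be told apart there. The readthrough gene Tnfsfm13 also shares 60.1% of the Tnfsf13 and 48.3% of the Tnfsf12 exon bases.

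Receptor adaptors, RIP kinases and their brakes were higher in KMF where the main fit called them, while 45.4% of all fitted genes were called higher. Ripk4 went the other way: it was too low in KMF for the main fit and was called lower in each of the 6 alternatives that fitted it. Of 20 genes listed, 6 were in the table and 4 rose, although Ripk2 alone was called higher without ID8 replicate 1 and 2 genes without ID8 replicate 3. Ripk2 (chr4:16122733-16163647), the kinase downstream of the NOD receptors, read 4.23, 5.36 and 6.24 FPKM in the ID8 libraries and 11.3, 10.9 and 9.7 in the KMF libraries (log2 fold change 1.05 ± 0.16, adjusted p = 0.00136). Ripk3 (chr14:55784996-55788857), the kinase that triggers necroptosis, read 5.8, 8.01 and 3.77 FPKM in the ID8 libraries and 12.9, 9.83 and 14 in the KMF libraries (log2 fold change 1.1 ± 0.27, adjusted p = 0.0143), and its call was lost without ID8 replicate 1 (adjusted p = 0.0518). Its substrate Mlkl (chr8:111311797-111338177), the executioner of necroptosis, read 10.6, 11.9 and 12.1 FPKM in the ID8 libraries and 12.8, 13.8 and 16.2 in the KMF libraries and was not called (log2 fold change 0.35 ± 0.12, adjusted p = 0.0511). Neither gene overlapped between the lines, with fold estimates of 2.14 for Ripk3 and 1.27 for Mlkl.

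Traf1 (chr2:34941750-34961772), an adaptor induced by NF-kB, read 0.279, 0.644 and 0.183 FPKM in the ID8 libraries and 2.18, 0.787 and 1.2 in the KMF libraries. Levels in ID8 replicate 2 and KMF replicate 2 came close (log2 fold change 1.96 ± 0.54, adjusted p = 0.0229), and the call was lost without ID8 replicate 1 or 3 or KMF replicate 1 (adjusted p up to 0.090). For Traf1 the libraries differed by up to 3.52-fold in CPM in ID8 and 2.77-fold in KMF, so the fold estimate also depends on single libraries. Tnfaip3 (chr10:19000910-19015657), the ubiquitin editor A20 that limits NF-kB, read 2.47, 2.51 and 2.06 FPKM in the ID8 libraries and 5.72, 3.79 and 3.08 in the KMF libraries (log2 fold change 0.88 ± 0.23, adjusted p = 0.019), and its call was lost without ID8 replicate 1 or 3 (adjusted p up to 0.0554). It lies 143836 bases from Perp on chromosome 10, and both rose. Ripk4 (chr16:97741933-97763737), a kinase of keratinocyte differentiation, gave 14, 8 and 20 counts in the ID8 libraries and 0, 0 and 1 in the KMF libraries. It was at least 4.56-fold lower in KMF.

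Among p53 and stress targets, 6 of 9 were in the table, 4 higher and 2 lower, and Gadd45a was the highest of the 3 Gadd45 genes in ID8 and the lowest in KMF. Gadd45a (chr6:67035096-67037457), a p53-induced sensor of growth arrest and DNA damage, read 61.1, 50.4 and 51.6 FPKM in the ID8 libraries and 8.01, 7.68 and 5.17 in the KMF libraries. It fell 7.64-fold (log2 fold change -2.93 ± 0.18, adjusted p = 2.95e-05), the largest decrease of the fitted cell death genes. A transcript on the other strand, E230016M11Rik, shares 19.1% of its exon bases. Gadd45g (chr13:51846678-51848468) read 5.29, 5.11 and 3.93 FPKM in the ID8 libraries and 12.5, 15.6 and 11 in the KMF libraries and rose (log2 fold change 1.48 ± 0.20, adjusted p = 7.99e-04). Gadd45b (chr10:80930091-80932204), the family member that NF-kB and TGF-beta induce, read 6.8, 14.5 and 13.5 FPKM in the ID8 libraries and 22.8, 28.9 and 22.8 in the KMF libraries and rose as well (log2 fold change 1.14 ± 0.27, adjusted p = 0.0125). ID8 replicate 1 was the lowest library for Gadd45b and the highest for Gadd45a. The sum of the 3 genes was 70.8 ± 2.13 FPKM in ID8 and 44.8 ± 6.69 FPKM in KMF. Gadd45a supplied 76.7 ± 6.01% of it in ID8 and 15.5 ± 2.7% in KMF, Gadd45b 16.5 ± 6.3% and 55.6 ± 2.93%, and Gadd45g 6.73 ± 0.909% and 28.9 ± 0.838%.

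Perp (chr10:18845071-18857073), a p53 target that encodes a desmosomal membrane protein, read 93.4, 101 and 78.7 FPKM in the ID8 libraries and 165, 139 and 155 in the KMF libraries. It rose 1.72-fold (log2 fold change 0.79 ± 0.12, adjusted p = 0.0013). Trp53i11 (chr2:93187548-93201759), a p53-inducible membrane protein, gave 14, 5 and 16 counts in the ID8 libraries and 61, 59 and 100 in the KMF libraries, a rise from a low level (log2 fold change 2.66 ± 0.37, adjusted p = 9.76e-04). Trp53i13 fell, at 11.4 ± 1.69 FPKM in ID8 and 6.9 ± 0.451 in KMF (log2 fold change -0.69 ± 0.15, adjusted p = 0.00741). p53 targets among the cell death genes therefore lay on both sides, with Pmaip1, Perp, Trp53i11 and Bax higher and Gadd45a and Trp53i13 lower.

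The remaining 13 genes hold names such as Bnip3, Tnfaip8 and Pdcd, and 6 rose while 5 fell, Pdcd4 and Tnfsf13os (both described above) among them. Bnip3 (chr7:138890836-138909519), a mitophagy receptor induced by hypoxia, read 10.4, 20.6 and 27.2 FPKM in the ID8 libraries and 33.2, 96.2 and 81.1 in the KMF libraries. It rose 3.72-fold (log2 fold change 1.9 ± 0.44, adjusted p = 0.0112), and in KMF replicate 1 it was far below the other KMF libraries, a spread of 2.89-fold in CPM. Tnfaip8l1 (chr17:56162477-56173955), a member of the TNF-induced TIPE family, read 0.371, 0.366 and 0.278 FPKM in the ID8 libraries and 2.57, 2.96 and 3.63 in the KMF libraries. It rose 9.22-fold with narrow spread (log2 fold change 3.21 ± 0.25, adjusted p = 6.36e-05). Pdcd6ip, which encodes the ESCRT partner ALIX, was higher, at 43.7 ± 0.573 FPKM in ID8 and 58.9 ± 2.15 in KMF (log2 fold change 0.47 ± 0.07, adjusted p = 0.00109). Pdcd10, the cavernous malformation protein CCM3, averaged 23.6 ± 1.01 FPKM in ID8 and 30.3 ± 1.44 in KMF (log2 fold change 0.40 ± 0.08, adjusted p = 0.00488). Tnfaip8, the founding TIPE gene, averaged 6.12 ± 0.717 FPKM in ID8 and 8.08 ± 0.517 in KMF (log2 fold change 0.44 ± 0.11, adjusted p = 0.016), and Pdcd5 averaged 34.4 ± 1.87 FPKM in ID8 and 41.6 ± 1.68 in KMF (log2 fold change 0.31 ± 0.09, adjusted p = 0.0261). Pdcd11, a ribosomal RNA processing factor, averaged 16.9 ± 1.76 FPKM in ID8 and 12.9 ± 1.06 in KMF (log2 fold change -0.35 ± 0.10, adjusted p = 0.0264). Dapk3, a kinase of myosin light chain, averaged 22.2 ± 0.263 FPKM in ID8 and 16.9 ± 1.63 in KMF (log2 fold change -0.35 ± 0.10, adjusted p = 0.0242). Gadd45gip1, a protein of the mitochondrial ribosome, averaged 6.65 ± 0.775 FPKM in ID8 and 4.42 ± 0.189 in KMF (log2 fold change -0.55 ± 0.13, adjusted p = 0.0114). Pdcd6ip and Pdcd10 were called in every alternative. The calls of Pdcd5, Tnfaip8, Pdcd11 and Dapk3 were lost in several, each time including the fit without ID8 replicate 1, and that of Gadd45gip1 without KMF replicate 2 (adjusted p up to 0.148, for Pdcd5). Bcl2l14 and Gsdma (a gasdermin, a pore former of pyroptosis) were too low in KMF to be fitted. Bcl2l14 gave 12, 14 and 4 counts in the ID8 libraries and 0, 0 and 2 in the KMF libraries, at least 3.29-fold lower in KMF. Gsdma gave 5, 12 and 5 counts in the ID8 libraries and 1, 1 and 0 in the KMF libraries, at least 2.48-fold lower.

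Other genes of these pathways, outside the name rule, were read from 4 further lists. Beside the counts that follow, 45.4% of all fitted genes were called higher and 47.5% lower, in a table that lists only called genes. Of 30 NF-kB and ubiquitin regulators 9 were in the table, 8 rose and Tnip1 fell. They include Bcl3, a nuclear IkB protein (12.6 ± 0.758 FPKM in ID8 and 28.3 ± 2.12 in KMF; log2 fold change 1.21 ± 0.10, adjusted p = 8.63e-05), and Optn, an autophagy receptor (log2 fold change 1.35 ± 0.12, adjusted p = 1.05e-04). Nfkbia, the main IkB brake and NF-kB target, rose by less and with a wide spread in KMF (31.3 ± 2.0 FPKM in ID8 and 47.8 ± 16.4 in KMF; log2 fold change 0.65 ± 0.22, adjusted p = 0.04996). Nfkbiz, an inducible nuclear IkB protein, averaged 5.36 ± 0.166 FPKM in ID8 and 10.9 ± 2.02 in KMF (log2 fold change 1.06 ± 0.14, adjusted p = 8.00e-04). The calls of Rbck1, Nfkbia, Nfkb1 and Tnip1 were lost under 12, 9, 4 and 4 of the 15 alternatives (adjusted p up to 0.301, for Rbck1). Of 11 further receptors and ligands, Relt rose (log2 fold change 1.63 ± 0.28, adjusted p = 0.00239) and Edar was too low to be fitted.

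Of 24 genes of execution and mitochondrial apoptosis 7 were in the table, 5 rose and 2 fell, the calls of Opa1 and Vdac3 being lost under 11 and 3 alternatives. Birc5, which encodes the mitotic inhibitor of apoptosis survivin, averaged 6.74 ± 1.73 FPKM in ID8 and 29.9 ± 4.72 in KMF (log2 fold change 2.18 ± 0.20, adjusted p = 1.41e-04). Bag1, a chaperone partner of BCL2, averaged 167 ± 30.6 FPKM in ID8 and 603 ± 40.1 in KMF (log2 fold change 1.89 ± 0.13, adjusted p = 4.12e-05). Lmna, which encodes the lamin A that caspase-6 cleaves, averaged 149.6 ± 13.9 FPKM in ID8 and 269 ± 28.1 in KMF (log2 fold change 0.89 ± 0.11, adjusted p = 5.95e-04). Parp1, a DNA repair enzyme and caspase substrate, fell (221 ± 33 FPKM in ID8 and 120.5 ± 21.1 in KMF; log2 fold change -0.84 ± 0.15, adjusted p = 0.00336). Of 20 other p53 targets 10 were in the table, 2 rose, 6 fell, and Ccng1 and Ei24 were not called. The calls of Pidd1 and Siva1 were lost under 5 alternatives each, and Ccng1 was called lower under 8. Sesn1, a stress-induced inhibitor of mTORC1, averaged 27.9 ± 2.89 FPKM in ID8 and 10.3 ± 0.519 in KMF (log2 fold change -1.4 ± 0.09, adjusted p = 3.47e-05). Phlda3, which restrains AKT, was higher, at 117 ± 12.3 FPKM in ID8 and 187 ± 17.3 in KMF (log2 fold change 0.71 ± 0.11, adjusted p = 0.00161). With Gadd45a and Trp53i13, the p53 targets that fell included Fdxr, Rrm2b, Sesn1, Sesn2, Siva1 and Xpc.

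Among genes with a mean of at least 10 counts in a line, ID8 replicate 3, the library of the latest passage, was the farthest from the other 2 ID8 libraries in 21 of 47 genes (44.7%), against 45.4% of all listed genes. In KMF, replicate 1 was farthest in 18 of 45 (40.0%), against 40.4%. The median ratio of the highest to the lowest library was 1.25 in ID8 and 1.2 in KMF.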

How the data were processed

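Libraries were made with a poly-A, NEBNext Ultra kit and sequenced as paired reads. Per the paper's methods reads were mapped with TopHat2, while the submitters' processing notes name STAR 2.5, CASAVA 1.8, DESeq2 and mm10; the counting tool and its strand setting are not given in the sources used here. The authors deposited raw counts per gene, FPKM that the authors computed from them, the gene length, and columns of their own comparison (mean per line, log2 fold change, p-value and adjusted p-value). The authors' deposited p-values were used only to see that every listed gene had an adjusted p under 0.05 and that 17359 genes had been tested. Their fold changes were not used. Coordinates are those of the table, and all 50 genes overlapped their position in GENCODE M21 (GRCm38).

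Library sizes were recovered from count, FPKM and length. Counts were fitted on the whole table with edgeR 4.0.16 in R 4.3.3 (quasi-likelihood test, two-sided, TMM, filterByExpr), and p-values were adjusted by Benjamini-Hochberg over 17359 genes, genes outside the table being taken to rank below. The test was checked on simulated data. A member at or under 3 counts in every library of a line is given by its lower bound. The members and lists were chosen with earlier results of these data known. Values are given for the 3 largest called changes per role, core apoptosis genes, the 5 highest means per line and members at the floor; other members were named after their values were seen. Alternatives were other scalings, filters (none, or 10 counts in every library), DESeq2 1.42.0, limma 3.58.1 on log2(FPKM + 1) with mean FPKM above 1, a replicate block, adjustment over the fitted genes, and leaving out each library. The floor covers counting error only.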

Additional observations from a re-analysis of the deposited data

How the results depend on the processing

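None of the 46 fitted members or the 27 fitted genes outside the name rule changed direction under the 15 alternatives. Of the members 19 passed or lost the threshold in at least 1 alternative (71 losses, 5 gains), as did 10 of the genes outside the rule (53 losses, 10 gains), among them Nfkbia, Opa1, Pidd1, Rbck1, Siva1 and Tnip1. Leaving out 1 library at a time gave 29 to 41 members called (5189 to 5907 of all genes, against 6470 with every library), 10 to 15 of them lower, 1 to 2 anti-apoptotic genes lower, 1 to 2 caspases higher and 1 to 2 lower, 0 to 1 apoptosome or inhibitor genes higher and 0 to 1 lower, 0 to 1 receptors lower, 0 to 1 ligands higher, 1 to 4 adaptors higher and 0 to 1 lower, and 2 to 4 of the other genes lower; fewer libraries enter these fits. Caspases called higher were 1 with DESeq2 size factors, library totals alone, upper quartile scaling, at least 10 counts in every library, and limma. Receptors called were 3 higher with the 10-count filter and 0 lower with that filter and with limma, both of which drop low genes. Adaptors called lower were 1 (Ripk4) with the DESeq2 Wald test and with no filter. Genes called with at least 2-fold change were 12 in limma on log2(FPKM + 1), which tests 42 of the members, adds a pseudocount and differs in its test. The part of each was not tested. Adjustment over the fitted genes alone gave 1 apoptosome or inhibitor gene higher (Endog). With upper quartile scaling the all-gene median moved by -0.11 on the log2 scale. The 10-count filter and limma, which test fewer genes, shifted it by 0.44 each, turning it from below to above 0.

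The replicate numbers gave no pairing: same-numbered libraries had deviations correlating at 0.081, -0.14 and 0.088, and ID8 replicate 2 matched KMF replicate 1 best (0.21), so they share only a number. With the replicate block 38 members (5720 of all genes) were called, with 1 caspase higher, 1 apoptosome or inhibitor gene lower and 0 ligands higher. Depth limits Ngfr, Tnfrsf9, Tnfrsf14 and Trp53i11, and the 4 genes at the floor, whose fold changes rest on few counts.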
